A study of Mus musculus with 2 samples.

Results

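The genes described here are 50 components of the actin cytoskeleton and of leukocyte motility, chosen by symbol from the 24421 gene symbols of the deposited expression values and sorted by what their proteins do. Each of the 50 symbols was found, none was at 0 in either library, and all 50 were among the 10378 genes with a mean of at least 1 RPKM, a read count scaled to gene length and library size. RNA came from granulocyte-monocyte progenitors (GMPs), the bone marrow cells from which neutrophils and monocytes arise, purified by flow cytometry from female F1 mice of the H-2b/d background. One library was made from non-tumor-bearing mice (NTB-GMP) and 1 from mice that carried 4T1, a mammary carcinoma line grown in the mammary site (4T1-GMP). The labels give neither the age of the mice nor how many contributed to a library, and they do not describe the gate. With 1 library per group there was no test of the conditions, and every difference below is a difference between these libraries. Where a pair of values is given, NTB-GMP comes first.

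Actin exists as monomers and as filaments, and a crawling leukocyte moves by adding monomers to filaments at its front and pulling up its rear with myosin. The ARP2/3 complex starts new filaments as branches on old ones when proteins of the WASP and WAVE families activate it. Profilin and thymosins hold the monomers, cofilin and gelsolin cut filaments, capping proteins stop their growth, and talin, vinculin and the ezrin family tie them to the membrane. Neutrophils depend on this machinery to leave the marrow, enter tissue and take up microbes.

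The RPKM corresponded to library sizes of 10180365 reads for NTB-GMP and 30016263 for 4T1-GMP. Whole reads could be recovered from the deposited digits, as lower bounds for some genes, and each 95% Clopper-Pearson interval below rests on them and covers counting error only. Rn45s, the precursor of ribosomal RNA, took up 16.95% of the NTB-GMP library and 6.98% of the 4T1-GMP library. Without it in either size, the scaling would lower every log2 ratio of an abundant gene by 0.16 (a shift of -0.16), so small differences between libraries depended on the scaling. All 10 primary granule and progenitor markers were present in both libraries, between 43.2 and 5162 RPKM in NTB-GMP and between 28.6 and 5625 RPKM in 4T1-GMP. Of these, 6 were at least 1.5-fold higher in 4T1-GMP (5 without Rn45s, which loses Elane). They were Ms4a3 (log2 ratio 1.35), a marker of GMPs, the granule genes Prtn3 (1.24), Ctsg (1.11) and Elane (0.66), Csf3r (1.09) and Gfi1 (0.88). At least that much lower were 3, the progenitor markers Cd34 (-1.37), Fcgr3 (-0.89) and Kit (-0.67), and Mpo, the myeloperoxidase of primary granules, differed little (0.12). The mix of transcripts also differed beyond the cytoskeleton. All 14 neutrophil granule and maturation markers were higher in 4T1-GMP (13 without Rn45s), with a summed level of 519 RPKM against 4080.4 RPKM, and none was at 0. Of 10 monocyte and dendritic markers, 7 of the 8 tested were lower, with a sum of 188 and 80.9 RPKM, and none was at 0. The other tested marker, F13a1, had the highest level of the list and differed little, at 49.1 and 49.6 RPKM. The 7 erythroid markers summed to 9.16 and 1.25 RPKM, and the 2 tested, Gata1 (-2.26) and Klf1 (-2.42), were lower in 4T1-GMP. The 8 lymphoid markers summed to 0.99 and 0.20 RPKM, and none was tested. The 6 mammary carcinoma markers summed to 18.3 and 10.1 RPKM, with Krt18 at 12.8 and 8.90 RPKM, Cdh1 at 5.36 and 1.04 RPKM, Krt8 on 1 and 6 reads, and Epcam, Krt14 and Krt19 at 0 in both libraries. The part these cells had in the results below was not tested, and in bulk RNA fewer cells of a type and less RNA per cell cannot be told apart.

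As a whole the cytoskeletal genes were somewhat higher in 4T1-GMP on the deposited scale, with a median that lay above that of all tested genes, though below it after quantile normalization (-0.09 against 0.01). Their median log2 ratio, taken as log2 of 4T1-GMP over NTB-GMP after adding 0.1 RPKM to each, was 0.16 (interquartile range -0.09 to 0.37), against 0.05 over all tested genes (-0.26 to 0.32). A total of 35 members (70%) were higher in 4T1-GMP and 15 were lower, where 54.7% of all tested genes were higher. When the sizes omitted Rn45s, which moves all genes nearly alike, the medians were -0.01 for the members and -0.11 for all tested genes, and 23 members and 39.1% of all genes were higher. Few members differed by at least 1.5-fold. In 4T1-GMP 5 were at least that much higher (10%, against a background of 9.8% of tested genes) and 5 were at least that much lower (10%, against 11.6%), so that large differences were about as common as among other genes. At 2-fold there was 1 higher member, Gsn (background 3.25%), and 1 lower member, Tmsb10 (background 4.92%).

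**Figure D1:**
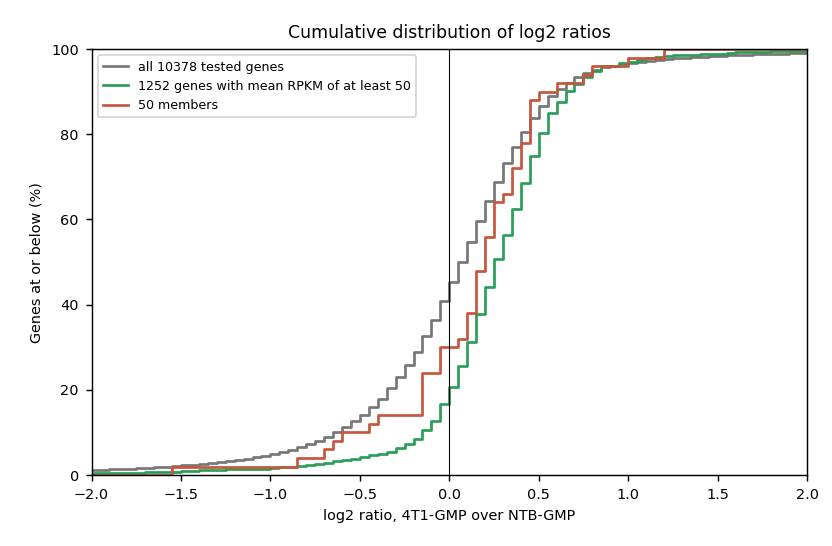
Cumulative share of genes (%) at or below each log2 ratio of 4T1-GMP over NTB-GMP, for all tested genes, for the 1252 genes with a mean of at least 50 RPKM and for the 50 members. The curve of the members lies between the others near 0, with 30% of members below 0.

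Most members are abundant, and the abundant genes of these libraries were shifted upward. Of the 50 members, 33 had a mean of at least 50 RPKM, a limit chosen after the data were seen. Over the 1252 genes above that limit the median log2 ratio was 0.24 and 79.2% were higher in 4T1-GMP. The 33 members had a median of 0.16, and 26 of them were higher. Only 1 of the 33 was at least 1.5-fold higher, against 13.3% of abundant genes, and 2 were at least that much lower, against 3.67%. Next to the genes above that limit, these 33 members were therefore not shifted further upward. Members below the limit were not compared with genes of similar abundance.

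Both cytoplasmic actins were higher in 4T1-GMP. Actb, which encodes beta-actin (chromosome 5, 142903115 to 142906754, minus strand, in the GENCODE M21 annotation of GRCm38), had 1451 RPKM in NTB-GMP against 1878 in 4T1-GMP, ranking 20th and 18th of all genes. The log2 ratio was 0.37 (interval 0.35 to 0.39). Actg1, which encodes gamma-actin (chromosome 11, 120345690 to 120348542, minus strand), had 459 and 614 RPKM, a log2 ratio of 0.42 (0.38 to 0.45). Beta-actin made up 76.0% of the summed RPKM of the pair in NTB-GMP (75.5% to 76.4%) and 75.4% in 4T1-GMP (75.2% to 75.6%), and these intervals overlapped. The direction held for both actins under each of the 6 alternative scalings and pseudocounts, with the log2 ratio of Actb between 0.07 and 0.37. The 4 muscle actin genes Acta1, Acta2, Actc1 and Actg2 summed to 0.04 RPKM in NTB-GMP against 0.14 in 4T1-GMP, and 3 of them were at 0 in each library.

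Genes of the actin cytoskeleton are known targets of serum response factor, which binds the CArG box, a run of A and T between CC and GG. RefSeq promoter windows of GRCm38.p6 were matched by symbol for 45 of the 50 members, and the 250 bases before each start site were searched on both strands, which read the box alike. A CArG box was present for 4 of the 45 members (8.89%), namely Actg1, Vcl, Myl6 and Arpc4, against 1.21% of 7988 tested genes with a window, 1.62% of all 27025 genes and 1.47% of all 32851 windows. The 4 members with a box were higher in 4T1-GMP, with log2 ratios from 0.07 to 0.77. Of the 41 without one, whose ratios ran from -1.57 to 1.19, 28 were also higher. Stretches around the boxes of Myl6 and Arpc4 overlapped annotated exons. The windows around the boxes of gamma-actin and vinculin, with the box in capitals, are printed because they lay outside any annotated exon and belong to genes that were higher in 4T1-GMP under every scaling tried. The first is chr11:120348551-120348610 on the minus strand, with the box beginning 90 bases before the start. The second is chr14:20929148-20929205 on the plus strand, with the box beginning 227 bases before the start.
Actg1: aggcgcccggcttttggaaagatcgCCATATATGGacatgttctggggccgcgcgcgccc
Vcl: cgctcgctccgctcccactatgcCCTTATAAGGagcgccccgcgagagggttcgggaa
A match describes the letters of the window, and binding of the factor was not measured.

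**Figure D2:**
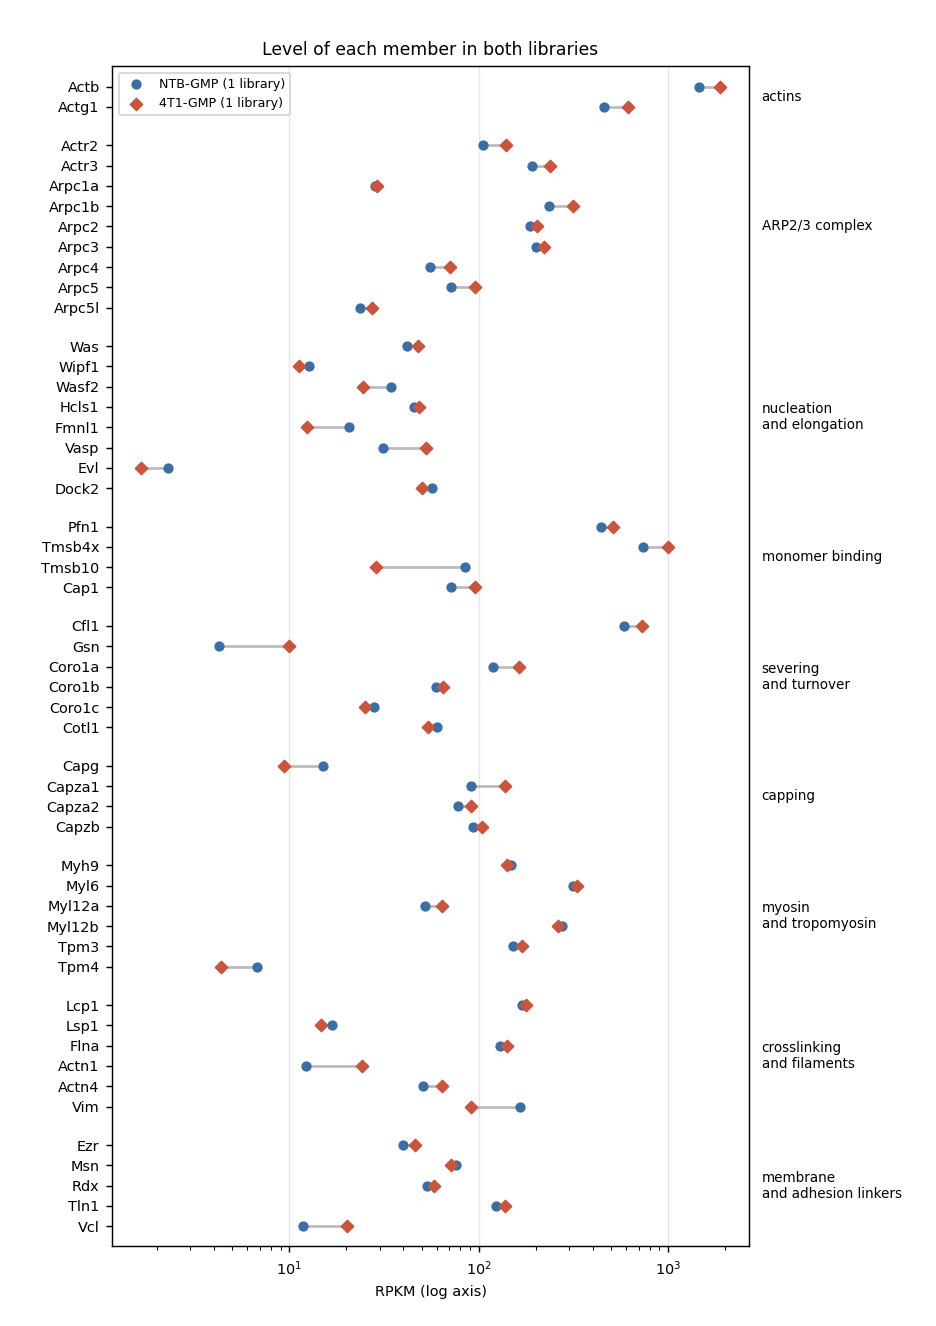
RPKM (log axis) of each of the 50 members in the NTB-GMP library (circles) and the 4T1-GMP library (diamonds), ordered by function, with a line joining the values of a gene. Actins, Tmsb4x and Cfl1 sit at the top of the range, and the longest lines belong to Tmsb10 and Gsn.

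All 9 genes of the ARP2/3 complex (6 without Rn45s) had a higher value in 4T1-GMP, by small amounts, with a median log2 ratio of 0.32 and none at 1.5-fold. Of all tested genes 54.7% were higher, and of genes averaging at least 50 RPKM 79.2%, with a median of 0.24. Centred on these abundant genes, 5 of the 9 were higher, with a median of 0.07. The summed level of the complex was 1095 RPKM in NTB-GMP against 1338 in 4T1-GMP, 1.22-fold higher. Arpc1b, the form of the p40 subunit that predominates in blood cells, had 234 and 314 RPKM, a log2 ratio of 0.43 (0.37 to 0.48). Its paralog Arpc1a had 28.3 and 29.1 RPKM, a log2 ratio of 0.04 whose interval held 0 (-0.11 to 0.20). Arpc5 had 71.4 and 96.0 RPKM (0.43, 0.34 to 0.52), and Actr2, an actin-related subunit at the base of the branch, had 106 and 139 RPKM (0.39, 0.34 to 0.45). Arpc1b, Arpc5, Actr2, Actr3 (0.32) and Arpc4 (0.35) were higher under each of the 6 alternative settings. By contrast Arpc1a, Arpc2 (187 and 204 RPKM, 0.12) and Arpc3 (0.15) were lower in 4T1-GMP without Rn45s, after centring on the abundant genes and after quantile normalization, and Arpc5l (23.6 and 27.3 RPKM, 0.21) was lower when ratios were centred on the abundant genes.

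The order of the subunits changed little. With the paralogs of a subunit summed, the 7 positions of the complex ran in NTB-GMP from 262 RPKM for Arpc1a and Arpc1b down to 55.1 RPKM for Arpc4, and in 4T1-GMP from 343 down to 70.3 RPKM for the same genes. The highest position stood 4.76-fold above the lowest in NTB-GMP and 4.88-fold in 4T1-GMP. Actr3 and Arpc3 exchanged places 2 and 3 (Actr3 at 191 and 238 RPKM, Arpc3 at 199.8 and 221 RPKM), and the other positions kept their rank. Arpc1b made up 89.2% of the RPKM of its pair in NTB-GMP (88.2% to 90.1%) and 91.5% in 4T1-GMP (91.1% to 91.96%).

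Genes that switch the ARP2/3 complex on, or lengthen filaments, went both ways, with a median log2 ratio of -0.18 and 3 of 8 higher (2 without Rn45s). Vasp, which encodes a protein that elongates filaments at the leading edge, had 31.2 RPKM in NTB-GMP against 52.4 in 4T1-GMP, a log2 ratio of 0.75 (0.63 to 0.87) that was just under 1.5-fold without Rn45s (0.58). Its relative Evl was low in both, at 2.29 and 1.66 RPKM (-0.45, -0.91 to -0.02). Vasp made up 93.1% of the summed RPKM of the pair in NTB-GMP (91.3% to 94.7%) and 96.9% in 4T1-GMP (96.4% to 97.4%). Fmnl1, a formin of leukocytes (chromosome 11, 103171107 to 103198901, plus strand), was lower in 4T1-GMP, at 20.8 and 12.5 RPKM, a log2 ratio of -0.73 (-0.86 to -0.61), or 1.66-fold lower.

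Genes of the WASP and WAVE arms differed in direction. Was, the gene of the Wiskott-Aldrich syndrome protein, had 41.7 and 47.9 RPKM (0.20, 0.09 to 0.31), and Hcls1, the leukocyte relative of cortactin, had 45.5 and 48.3 RPKM (0.08, -0.02 to 0.19). Wasf2, the WAVE protein of blood cells, was lower at 34.3 and 24.6 RPKM (-0.48, -0.57 to -0.39) and passed 1.5-fold without Rn45s (-0.64). Wipf1, the partner that protects WASP, had 12.7 and 11.2 RPKM (-0.18, -0.38 to 0.01). Dock2, a guanine nucleotide exchange factor needed for leukocyte migration, had 56.9 and 50.3 RPKM (-0.18, -0.23 to -0.13). Fmnl1, Wasf2, Wipf1, Evl and Dock2 kept lower values in 4T1-GMP under all 6 alternatives, whereas Was and Hcls1 changed sign in some.

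Thymosin genes parted from each other. Tmsb10, encoding thymosin beta-10 (chromosome 6, 72957347 to 72958748, minus strand), had 85.1 RPKM in NTB-GMP against 28.7 in 4T1-GMP, a log2 ratio of -1.57 (-1.71 to -1.43), or 2.96-fold lower, and 2.02% of tested genes lay below it. Tmsb4x, the main actin-sequestering peptide of leukocytes, was higher at 736 and 996 RPKM (0.44, 0.39 to 0.48). Their values went in opposite directions, and thymosin beta-10 made up 10.4% of the summed RPKM of the pair in NTB-GMP (9.69% to 11.1%) and 2.80% in 4T1-GMP (2.61% to 2.995%). This share does not depend on library size. Pfn1, profilin, had 442 and 514 RPKM (0.22, 0.15 to 0.29), and Cap1, which recycles actin from cofilin, had 71.2 and 96.2 RPKM (0.43, 0.33 to 0.54). The thymosins together stood at 1.86 times the RPKM of Pfn1 in NTB-GMP and 1.99 times in 4T1-GMP.

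**Figure D3:**
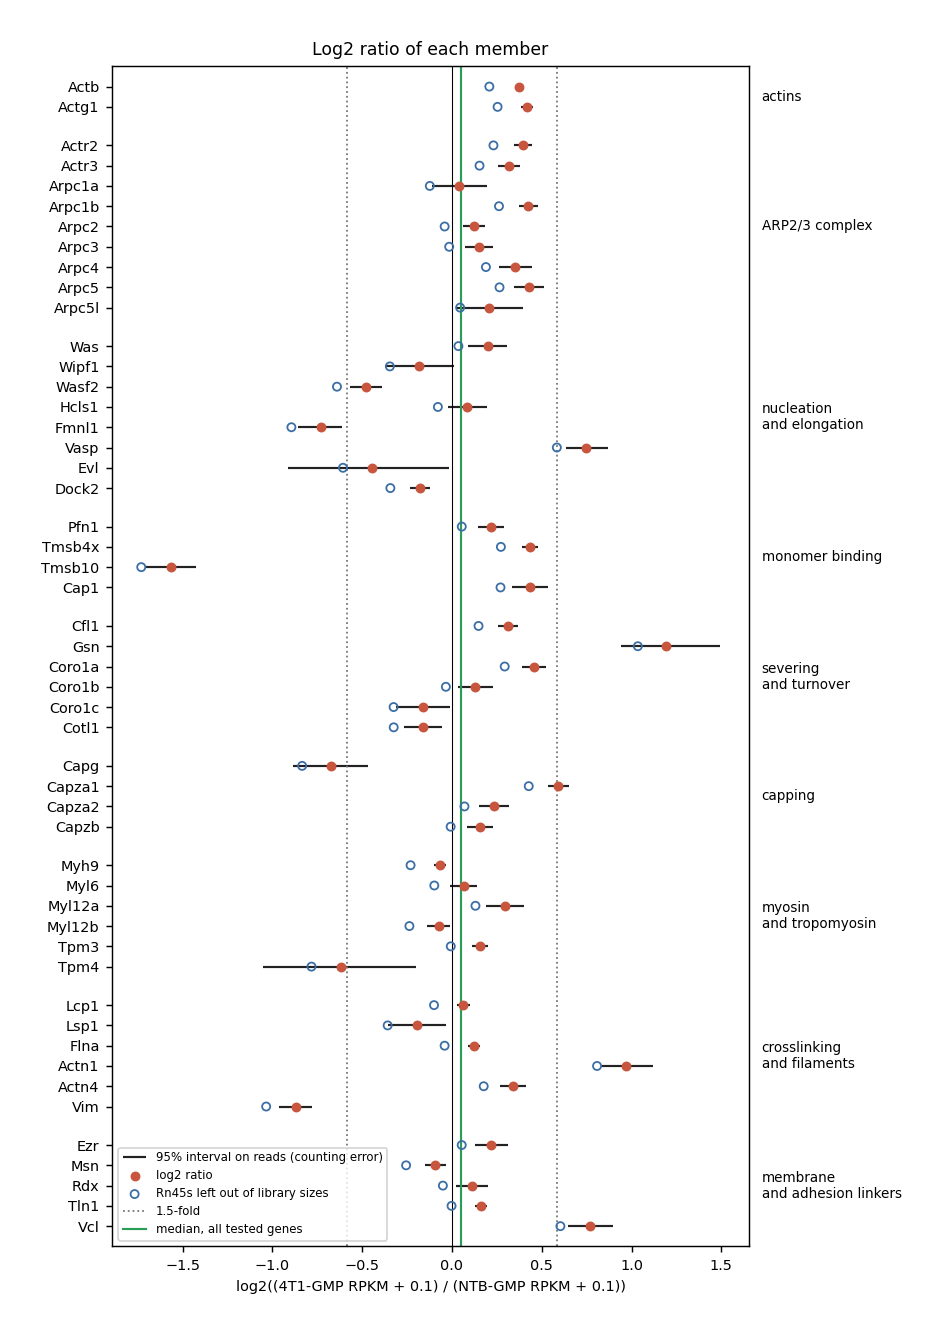
Log2 ratio of 4T1-GMP over NTB-GMP for each member (filled points) with the 95% interval on the reads, and the ratio from sizes that omit Rn45s (open points). Dotted lines mark 1.5-fold, and the green line is the median of all tested genes at 0.05. Tmsb10 and Vim lie farthest to the left, Gsn and Actn1 farthest to the right.

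Among genes for cutting and recycling filaments, 4 of 6 were higher (3 without Rn45s). Gsn, gelsolin (chromosome 2, 35256380 to 35307892, plus strand), had the largest ratio of the members, at 4.28 RPKM against 9.92 RPKM, a log2 ratio of 1.19 (0.94 to 1.49) resting on 128 and 875 reads. It remained a gene of low level next to Cfl1, cofilin, which had 586 and 727 RPKM (0.31, 0.26 to 0.37). Coro1a, the coronin of leukocytes, had 119 and 163 RPKM (0.46, 0.39 to 0.52), whereas Coro1b had 59.3 and 64.9 RPKM (0.13, 0.03 to 0.23) and Coro1c 28.0 and 24.98 RPKM (-0.16, -0.31 to -0.01). The leukocyte form was therefore a larger part of the 3 coronins in 4T1-GMP, at 64.5% of their RPKM (63.7% to 65.3%) against 57.7% in NTB-GMP (56.1% to 59.3%). Cotl1, a coactosin-like protein that binds filaments, had 60.1 and 53.7 RPKM (-0.16, -0.27 to -0.06).

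Capping genes differed by subunit. Capza1, an alpha subunit of the capping protein, had 91.6 and 138 RPKM, a log2 ratio of 0.59 (0.53 to 0.65) that reached 1.5-fold only under the reported scaling and the other pseudocounts. Capza2 had 77.6 and 91.2 RPKM (0.23, 0.15 to 0.32), and Capzb, the shared beta subunit, had 93.3 and 104 RPKM (0.16, 0.08 to 0.23). Of both alpha subunits Capza1 made up 54.1% in NTB-GMP (52.6% to 55.7%) and 60.2% in 4T1-GMP (59.5% to 60.98%). Capg, a gelsolin relative of macrophages that caps without cutting (chromosome 6, 72544391 to 72562983, plus strand), was lower in 4T1-GMP at 15.1 and 9.42 RPKM, a log2 ratio of -0.67 (-0.88 to -0.47). Capg and Gsn, both of the gelsolin family, thus differed in opposite directions.

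Nonmuscle myosin showed little difference. Myh9, its heavy chain, had 148 and 142 RPKM (-0.07, -0.10 to -0.04), and Myl6, the essential light chain, had 316 and 330.2 RPKM (0.07, -0.01 to 0.14). The regulatory light chains were Myl12b at 275 and 261 RPKM (-0.07, -0.14 to -0.01) and Myl12a at 52.4 and 64.3 RPKM (0.29, 0.19 to 0.40). Regulatory light chains together stood at 2.21 times the RPKM of Myh9 in NTB-GMP and 2.30 times in 4T1-GMP. Tropomyosins line the filaments, and Tpm3 had 152 and 169 RPKM (0.16, 0.11 to 0.20). Tpm4 was lower in 4T1-GMP, at 6.79 and 4.38 RPKM, with a wide interval (-0.62, -1.05 to -0.20) resting on 72 and 137 reads.

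Vimentin and alpha-actinin 1 differed most among crosslinking and filament genes. Vim, the intermediate filament protein of blood and mesenchymal cells (chromosome 2, 13573927 to 13582826, plus strand), had 166 RPKM in NTB-GMP against 90.6 in 4T1-GMP, a log2 ratio of -0.87 (-0.96 to -0.78), or 1.83-fold lower. Of 7 stromal and endothelial markers, Pecam1 was the 1 tested, at 29.5 and 11.3 RPKM. Col1a1 was at 0 in both libraries, and Col3a1, Cxcl12 and Cdh5 had 1 read each, in 4T1-GMP. Lepr had 4 and 17 reads, and Pdgfra 0 and 5 reads. Vim and Capg, which are abundant in monocytes and macrophages, were lower alongside 7 of the 8 tested monocyte and dendritic markers. The list summed to 188 and 80.9 RPKM, while its F13a1 differed little (49.1 and 49.6 RPKM). The part of monocytes and dendritic cells was not tested. Actn1, alpha-actinin 1, which bundles filaments at adhesions (chromosome 12, 80167547 to 80260371, minus strand), had 12.3 and 24.2 RPKM, a log2 ratio of 0.97 (0.83 to 1.12). Its relative Actn4 had 50.7 and 64.2 RPKM (0.34, 0.27 to 0.41), and Actn1 made up 19.6% of the pair in NTB-GMP (18.0% to 21.2%) and 27.4% in 4T1-GMP (26.5% to 28.3%). The abundant crosslinkers of leukocytes barely differed, with Lcp1, L-plastin, at 170 and 177 RPKM (0.06, 0.03 to 0.10) and Flna, filamin A, at 130 and 142 RPKM (0.12, 0.09 to 0.15). Both were lower in 4T1-GMP without Rn45s (-0.10 and -0.04). Lsp1, a filament-binding protein of leukocytes, had 16.8 and 14.7 RPKM (-0.20, -0.36 to -0.04).

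Of the genes that tie actin to the membrane and to integrins, Vcl stood out. Vcl, vinculin (chromosome 14, 20929398 to 21033676, plus strand), had 11.9 RPKM in NTB-GMP against 20.2 in 4T1-GMP, a log2 ratio of 0.77 (0.65 to 0.90). Talin, Tln1, which binds integrin tails, was more abundant and differed little, at 123 and 137 RPKM (0.16, 0.13 to 0.19). In the family of ezrin, moesin and radixin, Ezr had 39.9 and 46.4 RPKM (0.22, 0.13 to 0.31), Rdx 53.6 and 58.0 RPKM (0.11, 0.02 to 0.20) and Msn, moesin, the main form in leukocytes, 76.3 and 71.5 RPKM (-0.09, -0.15 to -0.03). Moesin was 44.9% of the RPKM of the 3 (43.6% to 46.2%) in NTB-GMP against 40.7% (39.9% to 41.4%). The 8 megakaryocyte and platelet markers summed to 16.4 RPKM in NTB-GMP against 5.73 in 4T1-GMP, with both tested markers, Itga2b and Gp9, lower and 2 of the 8 at 0 in each library.

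**Figure D4:**
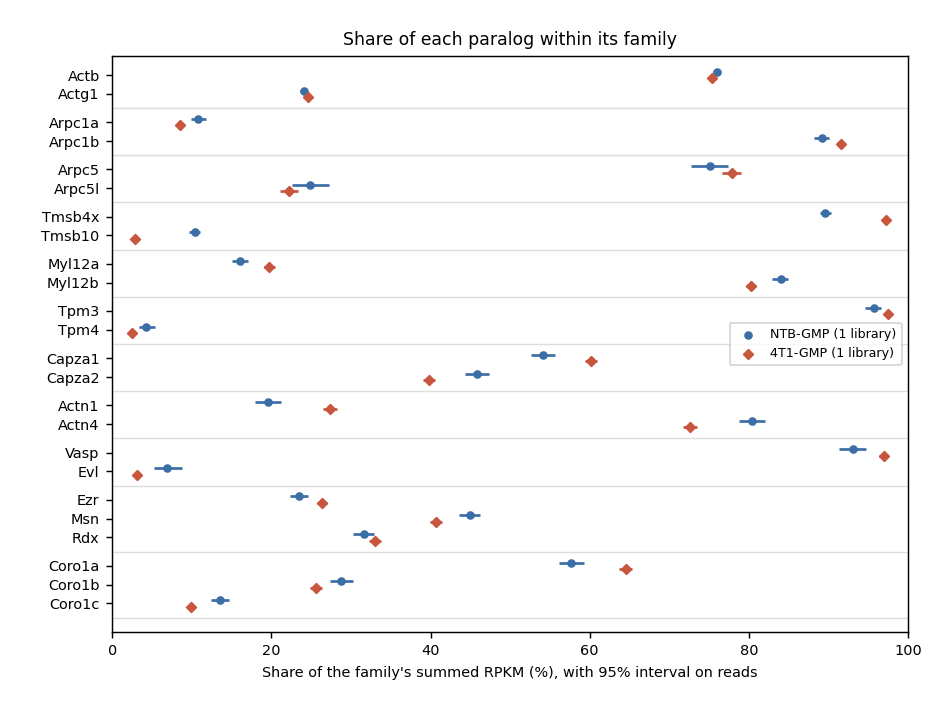
Share (%) of each paralog in the summed RPKM of its family in NTB-GMP (circles) and 4T1-GMP (diamonds), with 95% intervals on the reads. The shares of Actb and Actg1 lie close together between libraries, while those of Tmsb10, Capza1 and Actn1 lie apart.

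Shares within a family compare paralogs inside each library and do not move with library size. Intervals of the shares overlapped between the libraries for the actins and for Arpc5 with Arpc5l, and did not for the other pairs. The same comparison was not made for pairs of other genes, so it does not set these families apart. Counting intervals of most single members also excluded 0 on the deposited scale, with 32 above 0, 14 below 0 and 4 that held 0. That count was not made over all tested genes, so it does not set the members apart. On the same scale 54.7% of all tested genes and 79.2% of genes averaging at least 50 RPKM were higher in 4T1-GMP. Among the 9 pairs the largest differences were those of Actn1 (19.6% and 27.4%), Tmsb10 (10.4% and 2.80%) and Capza1 (54.1% and 60.2%). Reads of Tmsb10, of Capza1 and of Myl12a with Myl12b could be confused with those of other sequences, as described in the next paragraph. These intervals do not cover differences between mice or library preparations.

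For 5 members the reads could be confused with those of other sequences, as at least 20% of the 50-base stretches of their longest transcript also occurred in transcripts of other genes. They were Capza1 (73.8%, mostly Gm3608), Actg1 (56.7%), Actr3 (49.8%), Tmsb10 (43.5%, mostly Gm9844) and Myl12a (29.6%, mostly Myl12b). Their values are uncertain by an amount that these percentages do not measure. Neither Gm3608 nor Gm9844 is among the symbols of the deposited expression values, so their levels are not known. Exons of 7 members overlapped those of other genes by at least 10%. Among members at 1.5-fold this concerned Vcl, where 25.5% of exonic bases overlapped the opposite strand of Ap3m1, a gene at 16.8 and 23.8 RPKM (log2 ratio 0.50). Whether reads were counted by strand is not given in the sources used here.

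Further genes of the actin machinery were described in lists of partners of WASP and WAVE, of other actin-binding proteins and of focal adhesion proteins. Of 18 listed partners of WASP and WAVE 13 were tested, with a median log2 ratio of 0.10. Cttn, cortactin, which stabilizes branches, was the 1 gene at least 1.5-fold higher in 4T1-GMP (7.69%, against 9.8% of all tested genes). It had 4.24 and 6.86 RPKM (0.68, 0.43 to 0.97), and was not past that limit without Rn45s (0.52). Past 1.5-fold in the other direction were 2 genes (15.4%, against 11.6% of all tested genes), Wasl (-0.89) and Wipf2 (-0.61). Both averaged under 5 RPKM and are named because of their values.

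**Figure D5:**
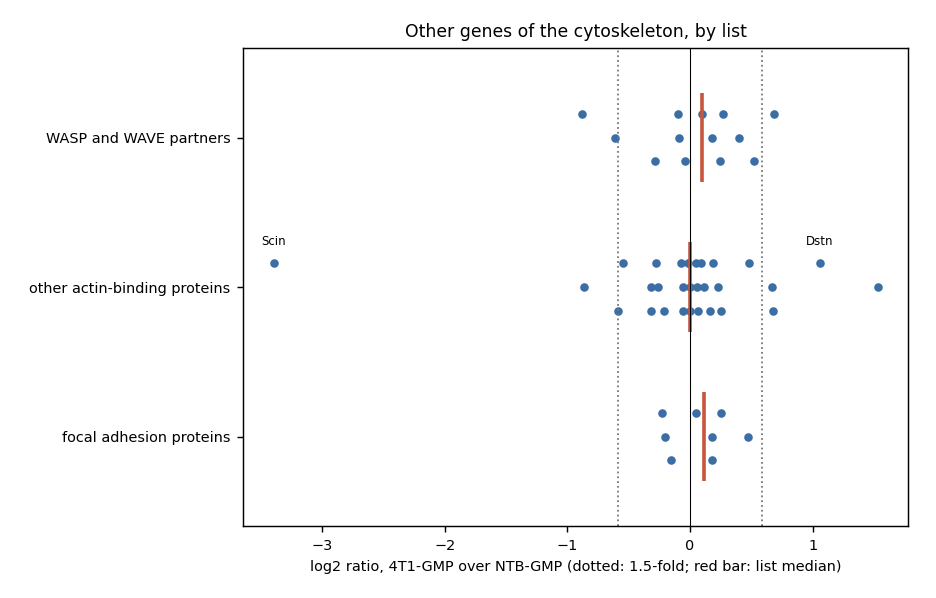
Log2 ratio of 4T1-GMP over NTB-GMP for the tested genes of 3 lists of other cytoskeletal genes, with the median of each list as a bar and 1.5-fold as dotted lines. Names mark genes averaging 5 RPKM or more with the largest differences. Scin lies at -3.40 and Dstn at 1.06.

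Among 29 tested other actin-binding genes the median was 0.00, with 4 at least 1.5-fold higher in 4T1-GMP (13.8%, against 9.8% of all tested genes) and 2 at least that much lower (6.90%, against 11.6%). Without Rn45s the median was -0.16, with 2 higher and 4 lower past that limit. Dstn, destrin, the relative of cofilin that depolymerizes actin, had 153 and 318 RPKM, a log2 ratio of 1.06 (0.98 to 1.14). The twinfilins, which bind monomers and filament ends, were both higher, with Twf1 at 10.18 and 16.3 RPKM (0.68, 0.50 to 0.86) and Twf2 at 35.4 and 56.2 RPKM (0.67, 0.54 to 0.80), and both were under 1.5-fold without Rn45s (0.51 and 0.50). Eps8 (1.53) was the fourth and Tmod1 (-0.86) one of the lower genes, both with means near 1 RPKM and named because of their values. Scin, the gelsolin relative called scinderin, was lower in 4T1-GMP by more than any of the 50 members, at 9.50 and 0.81 RPKM (-3.40, -3.94 to -3.18) on 290 and 73 reads. Of these 3 gelsolin relatives, then, Gsn was higher while Capg and Scin were lower. Flii (0.23) and Svil (0.17), also related to gelsolin, were within 1.5-fold and are named outside the rule, for comparison. The 8 tested focal adhesion genes had a median of 0.11, with none past 1.5-fold in either direction (against 9.8% and 11.6% of all tested genes).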

How the data were processed

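RNA was measured by bulk RNA-seq in 1 NTB-GMP and 1 4T1-GMP library. The authors deposited RPKM, 1 value per gene symbol. The submitters' processing notes name CASAVA 1.8.2, cutadapt 1.2.1, TopHat2 2.0.13, Picard 1.97, HTSeq 0.6.1, edgeR 3.12.1 and the build mm10 (GRCm38), without roles. The annotation and gene lengths are not given in the sources used here. Whole reads were recovered from ratios of RPKM for 14833 of the 14833 genes above 0, and the procedure was tested on simulated data. A common factor of both counts and gene length cannot be seen, so reads are lower bounds. Ratios used log2(RPKM + 0.1), which understates differences of low genes, over 10378 genes averaging 1 RPKM or more. Intervals are 95% Clopper-Pearson intervals on reads, scaled by library size or, for shares, by length. They leave out the added 0.1 RPKM, so for low genes such as Scin, Evl and Gsn they are not centred on the printed log2 ratio. All members are named. From the lists of other actin-binding proteins, WASP and WAVE partners and focal adhesion proteins, at most 3 genes per direction were named, past 1.5-fold and averaging 5 RPKM or more, and others named from them are said to be. The muscle actins and the cell markers in the text were named outside this rule, after their values were seen. Results of 3 further lists are not reported here. Members and lists were chosen with earlier results of these data known. Coordinates and exons came from GENCODE M21. Computations used Python 3.11.15, numpy 2.4.6, pandas 2.3.3 and scipy 1.17.1. Alternatives were pseudocounts of 1 and 0.01, library sizes without Rn45s, quantile and upper quartile scaling, other minimum levels and a 2-fold limit.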

Additional observations from a re-analysis of the deposited data

How the results depend on the processing

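The median log2 ratio of the 50 members, 0.16 as reported, changed sign to -0.00708 when library sizes omitted Rn45s, to -0.0894 after quantile normalization and to -0.0875 when centred on abundant genes, and was 0.0472 with upper quartile scaling. These scalings change all genes by construction. The centring and a minimum of 50 RPKM were chosen after seeing the data. Past 1.5-fold, where 5 members were higher and 5 lower, 3 were higher and 7 lower without Rn45s (5.85% and 17.5% of all tested genes), and 2 were higher and 7 lower when centred (4.40% and 20.5%). At a mean of at least 50 RPKM, which leaves 33 members, 1 was higher and 2 were lower past 1.5-fold. At 2-fold, 1 was higher and 1 was lower. Members kept their direction in 33 of 50 cases over the reported setting and 6 alternatives (18 higher, 15 lower), and 6 of the 10 members past 1.5-fold stayed past it in all of them, namely Fmnl1, Tmsb10, Gsn, Capg, Actn1 and Vim. Capza1, Vasp, Vcl and Tpm4 did not, and Wasf2 and Evl passed it in some. Over 300 single-gene values under alternatives, 165 lay outside the counting interval of the reported value and 135 within it. No paired analysis was possible because there was a single library of NTB-GMP and of 4T1-GMP, so no replicate could be left out. Differences between mice are not measured, and members below 10 RPKM, such as Tpm4 and Evl, have wide intervals.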
